A study of Mus musculus with 24 samples.

Results

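The TRPM (transient receptor potential melastatin) genes described here are Trpm2, Trpm3, Trpm4, Trpm5 and Trpm7. They were chosen as the rows of the table whose NCBI Gene number maps to these 5 mouse symbols, and all 5 of the 28059 genes in the table were found. RNA was sequenced from mouse pancreatic islets, cultured and picked by hand, from mice of mixed background that were 3 to 4 months old. The libraries form 2 sets by their sample numbers, and 22 library columns could be placed. Pdx1.CreERT2 is a tamoxifen-inducible Cre recombinase driven by the Pdx1 promoter, which is active in β cells and in part of the other islet cells, and it acts on alleles flanked by loxP sites. Set 1 held 4 libraries labelled Cop1 Etv1/4/5 deletion (floxed alleles Cop1fl/fl, Etv5fl/fl and Etv1fl/fl, the null allele Etv4ko/ko, and Pdx1.CreERT2), 3 Cop1 deletion libraries (replicates 2 to 4; Cop1 fl/fl; Pdx1.CreERT2) and 3 control libraries (Cop1 fl/fl). Set 2 held 4 Cop1 Etv4/5 deletion libraries (floxed Cop1fl/fl and Etv5fl/fl, with Etv4ko/+ and Pdx1.CreERT2), 4 Cop1 deletion libraries and 4 controls with those same labels. Every group therefore carried floxed Cop1, and the controls are labelled without Cre, so Cre itself and Cop1 loss cannot be told apart. Replicate numbers below only name libraries. The design text of the series gives 5 biological replicates, which is more than the libraries of any group here. Whether replicates are separate animals is not stated, so the tests measure the spread between these libraries, which may be partly technical.

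TRPM proteins are cation channels of the plasma membrane or of inner membranes, built from subunits with a shared transmembrane pore. Trpm4 and Trpm5 open when cytosolic calcium rises and let sodium in, which depolarises the cell; Trpm5 is best known from taste and tuft cells and is also present in β cells, where glucose raises calcium. Trpm2 is opened by ADP-ribose and oxidative signals, Trpm3 by the steroid pregnenolone sulfate and by heat, and Trpm7 couples a magnesium-permeable channel to a kinase domain. Cop1 is a ubiquitin ligase whose substrates include the ETS transcription factors Etv1, Etv4 and Etv5.

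The windows upstream of the start sites are shown because ETS factors, to which the Etv genes belong, bind DNA around a GGAA core. RefSeq promoter windows on GRCm38.p6 matched 4 of the 5 members, with 2 windows for Trpm3. The 250 bases before the start of Trpm5 and Trpm7 are printed 5′ to 3′ on the strand of the gene. Capitals mark AGGAAG, the motif searched with CCGGAA on both strands (the 2 can overlap). The windows lie at chr7:143094643-143094892 on the minus strand for Trpm5 and at chr2:126876262-126876511 on the minus strand for Trpm7.
Trpm5: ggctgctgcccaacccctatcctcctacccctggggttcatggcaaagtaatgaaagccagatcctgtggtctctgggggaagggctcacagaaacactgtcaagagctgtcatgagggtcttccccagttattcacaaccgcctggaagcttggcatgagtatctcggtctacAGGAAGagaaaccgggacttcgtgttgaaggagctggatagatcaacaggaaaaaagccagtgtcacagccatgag
Trpm7: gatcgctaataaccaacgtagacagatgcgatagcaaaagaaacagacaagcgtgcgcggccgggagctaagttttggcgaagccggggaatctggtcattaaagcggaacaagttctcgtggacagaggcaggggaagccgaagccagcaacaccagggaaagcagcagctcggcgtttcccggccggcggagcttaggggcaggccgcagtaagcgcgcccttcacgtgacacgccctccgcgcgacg
The Trpm5 window held 1 AGGAAG, starting 76 bases before the start site, and no CCGGAA. The Trpm7 window and the Trpm2 window held neither of these motifs. The shorter GGAA core was not counted, and it occurs outside the marked motif in both printed windows, Trpm5 and Trpm7. Each Trpm3 window held 1 AGGAAG, at 118 and at 49 bases before its start. AGGAAG was present in 29.5% and CCGGAA in 12% of all 32851 windows of the same length, so a match of this kind is common. The Trpm5 window had 4 CpG dinucleotides and 52.8% G+C, and the Trpm7 window 26 CpG and 60.4% G+C, against medians of 6 and 52.4% over all windows.

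Total RPKM (reads scaled to gene length and library size) ranged between 569486 and 664207 per set 1 library and between 524289 and 682560 per set 2 library. The read counts are not in the table; the steps between low values put set 1 libraries at 0.331 to 0.526 of the deepest library, and set 2 libraries at 0.758 to 1. No 2 of the libraries held identical values in the 231 pairs compared. Cop1 was lower in every deletion library than in every control of its set, with 0.719 to 1.13 RPKM in deletion and 1.22 to 1.55 RPKM in control libraries of set 1. In set 2 it had 0.763 to 0.934 RPKM in deletion and 1.43 to 1.87 RPKM in control libraries. Esr1, whose sequence is part of the CreERT2 transgene, had 44.0 to 111 RPKM in the libraries labelled with Cre and 0.05 to 0.2 RPKM in the controls, except the library labelled set 1 control replicate 2, which had 99.1 RPKM. Etv4 was higher, not lower, in the libraries labelled Cop1 Etv1/4/5 deletion, at 0.927 to 1.53 RPKM, against 0.0551 to 0.0775 RPKM in Cop1 deletion and 0.0418 to 0.118 RPKM in control libraries; the part of Etv4 removed in the allele is not given in the sources used here, so the gene total does not settle the label. Etv1 had 5.30 ± 0.31 RPKM there, against 4.72 ± 0.43 RPKM in Cop1 deletion and 6.53 ± 0.78 RPKM in controls (SD, n = 4, 3 and 3). Etv5 had 2.57 to 4.85, 2.31 to 3.58 and 2.23 to 8.43 RPKM in those groups, so none of the 3 Etv genes had its lowest set 1 mean in the libraries labelled with their deletion. In set 2 Etv4 had 0.911 ± 0.19 RPKM in Cop1 Etv4/5 deletion, 0.947 ± 0.49 RPKM in Cop1 deletion and 0.532 ± 0.15 RPKM in controls (SD, n = 4 each). Etv5 had 1.39 to 1.83 RPKM in Cop1 Etv4/5 deletion, which overlapped with 1.23 to 2.75 RPKM in Cop1 deletion and lay below 2.93 to 6.99 RPKM in controls. Set 2 Cop1 deletion replicates 2 and 3 stood apart from the other set 2 libraries on the second principal component, at -54.7 and -33.5. Both had Y-linked transcripts, as did Cop1 Etv4/5 deletion replicates 1 and 3, whereas no set 2 control had them. Both set 2 comparisons with control therefore differ in this too. In set 1, 9 of 10 libraries had them, all but control replicate 3. Of these, Cop1 deletion replicate 3 and Cop1 Etv1/4/5 deletion replicates 3 and 4 also had Xist, a female transcript. It had 10.4, 29.4 and 24.2 RPKM in them. Whether a library holds RNA of several animals is not stated. Directions that involve the Etv1/4/5 deletion rest on the label of that whole group. Values without set 1 control replicate 2, or without set 2 Cop1 deletion replicates 2 and 3, are given for the main Trpm results and, for other named genes, where they end a call or move a called value by over 1.5 times.

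Ordered by RPKM, which is per length and so can be compared between genes, Trpm5 led in set 1 and Trpm7 in set 2. In the set 1 libraries labelled Cop1 Etv1/4/5 deletion, in Cop1 deletion and in controls the order of mean levels was Trpm5, Trpm7, Trpm4, Trpm3, Trpm2. Only the Trpm5 and Trpm7 ranges in Cop1 deletion overlapped between neighbours in that order. In set 2 the order was Trpm7, Trpm4, Trpm5, Trpm2, Trpm3 in Cop1 Etv4/5 deletion, Trpm7, Trpm4, Trpm2, Trpm5, Trpm3 in Cop1 deletion, and Trpm7, Trpm5, Trpm4, Trpm3, Trpm2 in controls. The overlapping neighbours were Trpm4 with Trpm5 and Trpm2 with Trpm3 in Cop1 Etv4/5 deletion, every pair but Trpm4 with Trpm2 in Cop1 deletion, and Trpm4 with Trpm3 and Trpm3 with Trpm2 in controls. Trpm5 made up 55.1% to 62.9% of the summed RPKM of the 5 genes in set 1 Cop1 Etv1/4/5 deletion, 19.7% to 44.9% in Cop1 deletion and 60.8% to 77.6% in control libraries. In set 2 its share was 20.4% or less in Cop1 Etv4/5 deletion, 5.45% to 10.5% in Cop1 deletion and 20.4% to 32.9% in controls. The other TRPM genes, Trpm1, Trpm6 and Trpm8, named after their values were seen, did not reach 1 RPKM in any library.

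**Figure D1:**
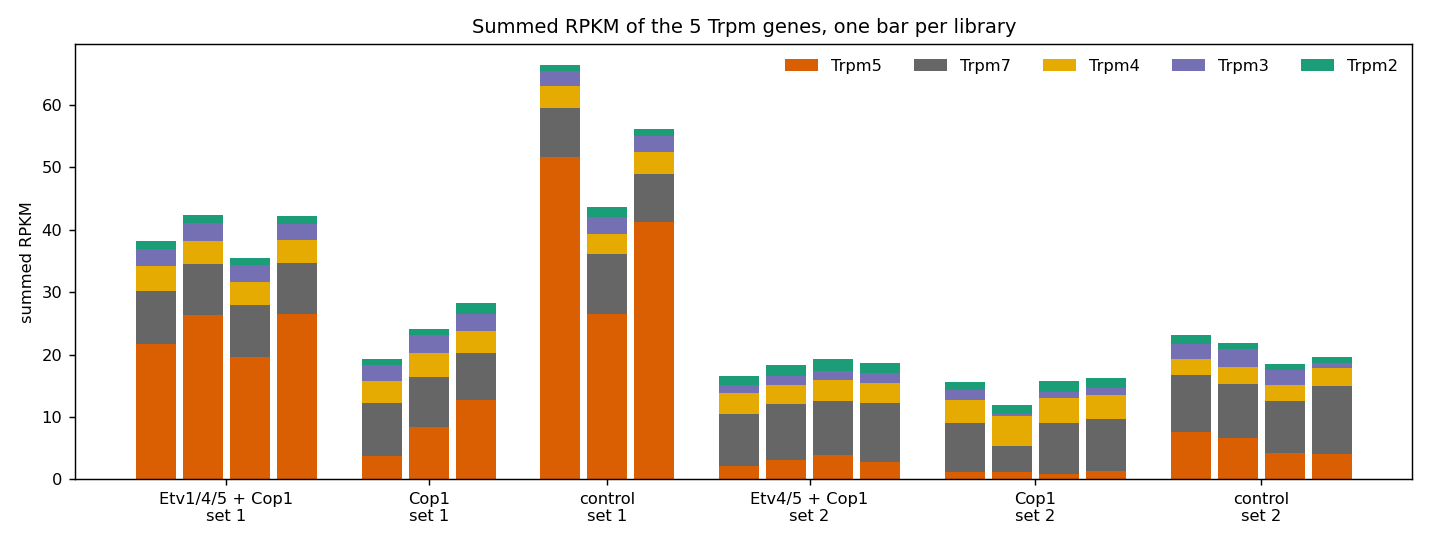
Summed RPKM of the 5 Trpm genes, 1 stacked bar per library, with groups along the axis. In set 1 the sum was 35.6 to 42.5 RPKM with Etv1/4/5 deletion, 19.3 to 28.3 RPKM in Cop1 deletion and 43.6 to 66.5 RPKM in controls, and the Trpm5 segment accounts for most of the spread between groups.

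The first question was whether Cop1 deletion changed the Trpm genes. Trpm5 was lower in every Cop1 deletion library than in every control of its set, by 4.88-fold in set 1 and 3.59-fold in set 2 on the log2(RPKM + 0.5) scale. Of the 5 genes, 1 rose (Trpm4) and 1 fell (Trpm5) over the mean of both sets, a comparison in which 20.1% of the 14342 genes tested were called at an adjusted p under 0.05, 9.57% higher and 10.5% lower. In set 1 only Trpm5 was called (of all genes tested 8.33% were, 4.04% higher and 4.29% lower), and in set 2 Trpm4 rose while Trpm5 and Trpm3 fell (of all genes tested 18.8% were called, 9.09% higher and 9.75% lower). The median log2 fold change of the 5 genes over both sets was -0.23, beside -0.02 over all genes tested.

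Trpm5 had 3.81, 8.41 and 12.7 RPKM in set 1 Cop1 deletion libraries, against 51.6, 26.5 and 41.3 RPKM in set 1 controls. In set 2 it had 1.18, 1.24, 0.861 and 1.35 RPKM in Cop1 deletion libraries, against 7.63, 6.68, 4.15 and 4.01 RPKM in controls. The groups did not overlap in either set, and the lowest control of set 2 lay near the lowest Cop1 deletion value of set 1, so levels differed between the sets as well as between genotypes. The log2 fold change was -2.07 ± 0.21 (SE) over both sets with limma (Benjamini-Hochberg adjusted p = 1.5e-06), -2.29 ± 0.32 in set 1 (limma adjusted p = 0.00012) and -1.85 ± 0.28 in set 2 (limma adjusted p = 0.00015). By size it ranked 17 of the 14342 genes tested over both sets. The difference between the sets in this effect, -0.44 ± 0.43, did not pass the test (limma adjusted p = 0.63). Without set 1 control replicate 2 the set 1 value was -2.55 (limma adjusted p = 0.00011), and without set 2 Cop1 deletion replicates 2 and 3 the set 2 value was -1.75 (limma adjusted p = 0.0041). In bulk islets, fewer cells of a type and less RNA per cell cannot be told apart.

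Trpm4, the other calcium-activated channel, was higher with Cop1 deletion in set 2. It had 3.77, 4.75, 4.02 and 3.9 RPKM in set 2 Cop1 deletion libraries, against 2.56, 2.72, 2.63 and 2.95 RPKM in controls, and the groups did not overlap. The log2 fold change was 0.52 ± 0.07 in set 2 (limma adjusted p = 5.2e-05) and 0.29 ± 0.05 over both sets (limma adjusted p = 0.00065). In set 1 it had 3.43, 3.88 and 3.52 RPKM in Cop1 deletion and 3.57, 3.25 and 3.44 RPKM in control libraries, which overlapped, and the log2 fold change was 0.07 ± 0.08 (limma adjusted p = 0.75). The effect was smaller in set 1 by 0.45 ± 0.11 on the log2 scale (difference -0.45, limma adjusted p = 0.028, in a comparison with 2.83% of genes called). Without set 2 Cop1 deletion replicates 2 and 3 the set 2 value was 0.43 (limma adjusted p = 0.00068), and the difference between the sets was -0.37 and was no longer called (limma adjusted p = 0.056). With libraries scaled to equal total RPKM that difference was -0.27 (limma adjusted p = 0.17), and it was lost in 6 of the 22 fits that left out 1 library.

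Trpm3 fell in set 2. It had 1.54, 0.375, 0.959 and 1.07 RPKM in set 2 Cop1 deletion libraries, against 2.52, 2.92, 2.28 and 0.853 RPKM in controls. The ranges overlapped through control replicate 4, and Cop1 deletion replicate 2 was the lowest library. The log2 fold change was -0.81 ± 0.23 (limma adjusted p = 0.021). It was -0.48 without Cop1 deletion replicates 2 and 3 (limma adjusted p = 0.23), and -1.11 without control replicate 4 (limma adjusted p = 0.00029), so single libraries decide this call. It also missed the threshold without control replicate 1, 2 or 3 (limma adjusted p = 0.066, 0.078 and 0.053), without Cop1 deletion replicate 2 alone (0.074) and with set 2 fitted alone (0.11). In set 1 Trpm3 had 2.56, 2.79 and 2.69 RPKM in Cop1 deletion and 2.34, 2.7 and 2.55 RPKM in control libraries, and it was not called (log2 fold change 0.07 ± 0.27, limma adjusted p = 0.93). Over both sets it was -0.37 ± 0.18 (limma adjusted p = 0.16), and -0.52 without set 2 control replicate 4 (limma adjusted p = 0.0078). Trpm3 hosts the microRNA gene Mir204, which the table lists at 0 in every library. Gene RPKM does not give the level of a mature microRNA, so no level of it is read from this.

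Trpm2 and Trpm7 were not called in any Cop1 comparison. Trpm2 had 0.982, 1.1 and 1.85 RPKM in set 1 Cop1 deletion and 1, 1.63 and 1.12 RPKM in control libraries. In set 2 it had 1.29, 1.34, 1.84 and 1.6 RPKM in Cop1 deletion and 1.46, 1.06, 0.955 and 0.929 RPKM in controls, with a log2 fold change of 0.34 ± 0.14 (limma adjusted p = 0.11). Trpm2 values overlapped between the groups in both sets. Trpm7 had 8.52, 7.99 and 7.54 RPKM in set 1 Cop1 deletion and 7.95, 9.52 and 7.73 RPKM in control libraries. In set 2 it had 7.79, 4.18, 8.12 and 8.29 RPKM in Cop1 deletion and 9.05, 8.54, 8.42 and 10.9 RPKM in controls, with a log2 fold change of -0.39 ± 0.14 (limma adjusted p = 0.062). The set 2 Trpm7 groups did not overlap, and Cop1 deletion replicate 2 was again the lowest library. Without Cop1 deletion replicates 2 and 3 the value was -0.18 (limma adjusted p = 0.24), whereas it passed the test without replicate 1, 3 or 4 of that group (limma adjusted p = 0.043, 0.039 and 0.031).

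**Figure D2:**
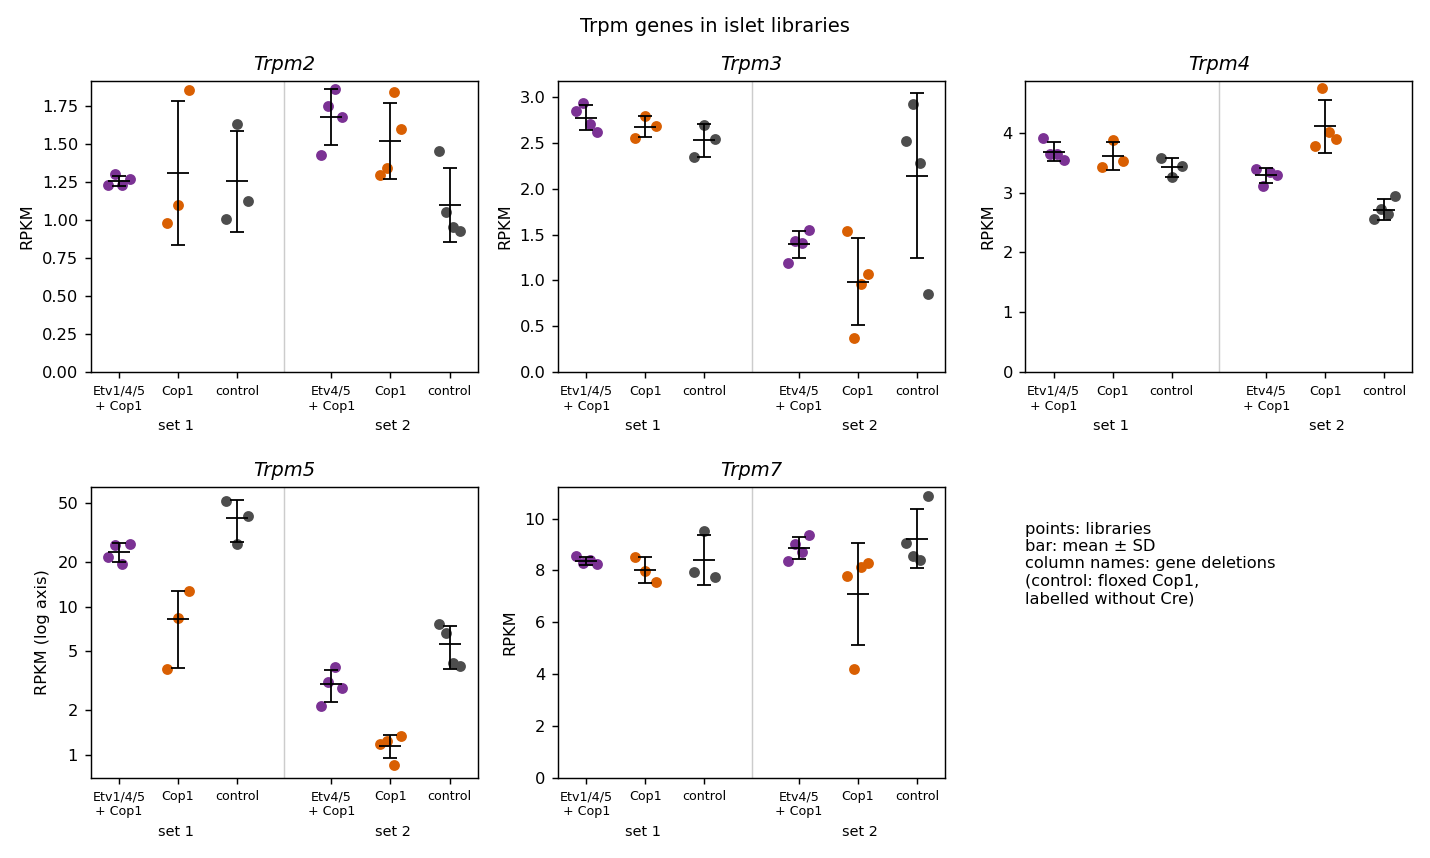
RPKM of each Trpm gene in each library, by group and set; points are libraries and bars show the mean ± SD, with a log axis for Trpm5. Trpm5 in Cop1 deletion lay below the controls in both sets, at 3.81 to 12.7 against 26.5 to 51.6 RPKM in set 1 and at 0.861 to 1.35 against 4.01 to 7.63 RPKM in set 2.

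The second question was whether added Etv deletion altered these levels. Trpm5 was higher in the libraries labelled Cop1 Etv1/4/5 deletion than in Cop1 deletion alone, at 21.7, 26.3, 19.6 and 26.5 RPKM against 3.81, 8.41 and 12.7 RPKM. The groups did not overlap, and the log2 fold change was 1.58 ± 0.30 (limma adjusted p = 0.0026). Of the 5 genes, only Trpm5 was called in this comparison, in which 6.34% of all genes tested were. The difference between Cop1 deletion and control shrank by 69.1% on the log2 scale with the added deletion, as a description of the 2 comparisons, which share the Cop1 deletion libraries. Against controls, at 51.6, 26.5 and 41.3 RPKM, the log2 fold change of the libraries labelled Cop1 Etv1/4/5 deletion was -0.71 ± 0.30 (limma adjusted p = 0.4) with a 95% interval of -1.34 to -0.07. The highest of these libraries and the lowest control, replicate 2, both lay at 26.5 RPKM, and without that replicate the value was -0.97 (limma adjusted p = 0.15). None of the 5 genes was called against control in set 1, where 1.32% of all genes tested were; by limma, Trpm5 was the only one of them with an unadjusted p under 0.05, at 0.03.

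In set 2, Trpm5 had 2.15, 3.08, 3.94 and 2.84 RPKM in Cop1 Etv4/5 deletion, against 1.18, 1.24, 0.861 and 1.35 RPKM in Cop1 deletion. The groups did not overlap, but the log2 fold change of 1.07 ± 0.28 missed the threshold (limma adjusted p = 0.054). It passed in 4 of the 22 fits that left out 1 library, and it was 0.97 without Cop1 deletion replicates 2 and 3 (limma adjusted p = 0.26). The difference from control shrank by 57.7% on the log2 scale. Against the controls, at 7.63, 6.68, 4.15 and 4.01 RPKM, the log2 fold change was -0.78 ± 0.28 (limma adjusted p = 0.093), and the groups did not overlap; it passed in 1 of the 22 fits that left out 1 library (limma adjusted p = 0.037). The effects of added Etv deletion on Trpm5 in the 2 sets differed by 0.51 ± 0.41 on the log2 scale, which did not pass the test (limma adjusted p = 0.49), in a comparison with 4.06% of genes called and none of the 5; Trpm4, at 0.31 ± 0.10, was the only one of them with an unadjusted p under 0.05 (0.008).

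Trpm4 was the only one of the 5 called in the set 2 comparison of Cop1 Etv4/5 deletion with Cop1 deletion, in which 1.73% of all genes tested were called. It had 3.39, 3.11, 3.35 and 3.3 RPKM in Cop1 Etv4/5 deletion, against 3.77, 4.75, 4.02 and 3.9 RPKM in Cop1 deletion, and the groups did not overlap. The log2 fold change was -0.28 ± 0.07 (limma adjusted p = 0.049), and -0.20 without Cop1 deletion replicates 2 and 3 (limma adjusted p = 0.25). It was kept in 3 of the 22 fits that left out 1 library, with limma adjusted p = 0.028 to 0.15. Against controls, at 2.56, 2.72, 2.63 and 2.95 RPKM, Trpm4 was higher in Cop1 Etv4/5 deletion by 0.24 ± 0.07 on the log2 scale (limma adjusted p = 0.041, with 8.74% of all genes called). That call was kept in 11 of the 22 fits that left out 1 library, and with equal total RPKM it was 0.17 (limma adjusted p = 0.21). In set 1 Trpm4 had 3.92, 3.64, 3.64 and 3.54 RPKM in the libraries labelled Cop1 Etv1/4/5 deletion, which overlapped with both other groups.

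Trpm2 had 1.43, 1.75, 1.86 and 1.68 RPKM in Cop1 Etv4/5 deletion, with a log2 fold change against control of 0.45 ± 0.14 that missed the threshold (limma adjusted p = 0.058). It passed in 4 of the 22 fits that left out 1 library, and without Cop1 deletion replicates 2 and 3 (limma adjusted p = 0.041). Trpm3 had 1.19, 1.43, 1.4 and 1.55 RPKM in Cop1 Etv4/5 deletion, between the means of 0.986 RPKM in Cop1 deletion and 2.14 RPKM in controls, and was called against neither, but passed against controls in 1 of the 22 fits that left out 1 library (limma adjusted p = 0.019). Trpm7 had 8.37, 9.02, 8.7 and 9.36 RPKM in Cop1 Etv4/5 deletion, above every Cop1 deletion library, with a log2 fold change of 0.35 ± 0.14 (limma adjusted p = 0.17). Without Cop1 deletion replicate 2, the lowest library, this was 0.13 ± 0.08 (limma adjusted p = 0.5), so that library sets most of its size. In the set 1 libraries labelled Cop1 Etv1/4/5 deletion these 3 genes varied little, at 1.23 to 1.30 RPKM for Trpm2, 2.62 to 2.94 RPKM for Trpm3 and 8.24 to 8.55 RPKM for Trpm7.

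**Figure D3:**
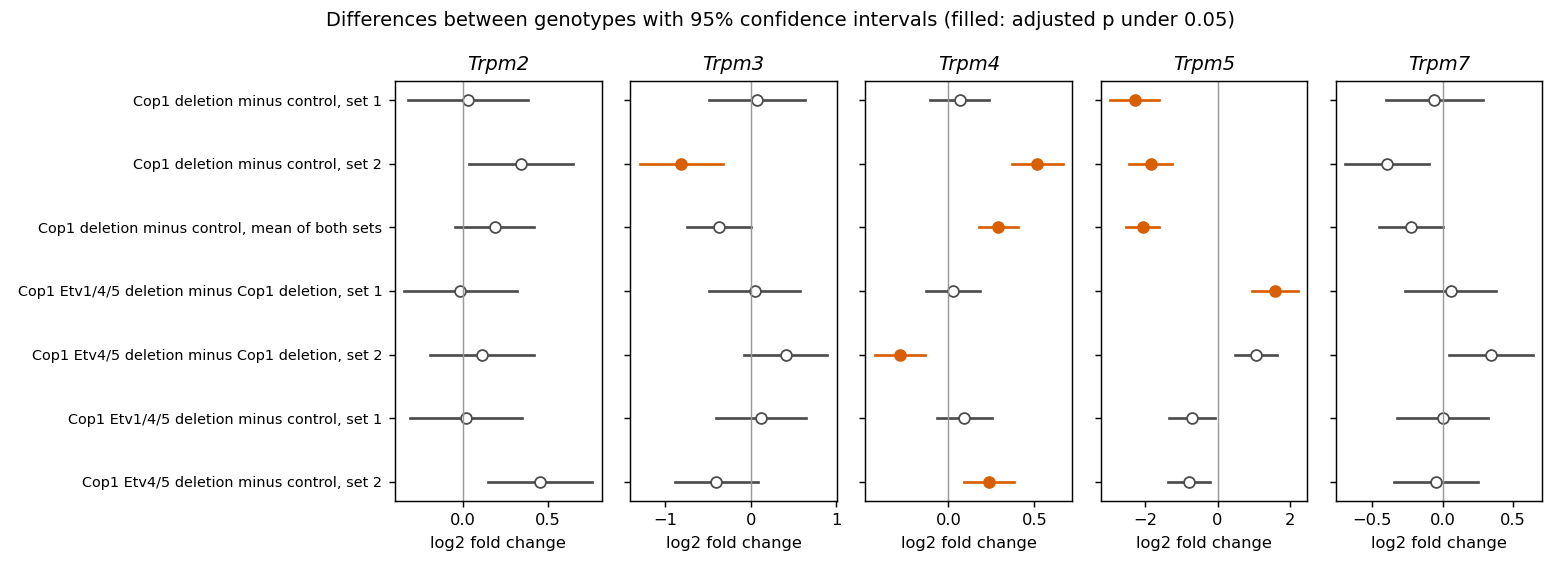
Log2 fold changes of the 5 Trpm genes with 95% confidence intervals, in 7 comparisons; filled points passed an adjusted p under 0.05 (limma). Trpm5 is filled and negative in the Cop1 comparisons, at -2.29 in set 1 and -1.85 in set 2, and filled and positive at 1.58 for added Etv1/4/5 deletion.

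The genes around Trpm5 in its pathways were read from lists. Counts over both sets are to be read against the 20.1% of all genes tested that were called in that comparison. Counts in set 1 or set 2 alone are to be read against 8.33% and 18.8%. Rises and falls of listed genes, here and in the paragraphs below, are on the log2 scale. In the taste cascade that opens Trpm5, 2 of the 8 genes passed the filter on low values and 1 was called. The others had at most 0.571 RPKM in any library, so the called gene does not speak for the whole cascade. Itpr3, the IP3 receptor of that cascade, rose with Cop1 deletion by 0.50 ± 0.10 over both sets (limma adjusted p = 0.001), to 20.6 ± 3.6 RPKM in set 2 Cop1 deletion against 12.6 ± 0.69 RPKM in controls (SD, n = 4 each). Of 17 tested genes for Gq, phospholipase C, IP3 receptors and the kinases that make PIP2, a lipid that TRPM channels need, 2 rose over both sets (Plcb3 by 0.36 and Itpr2 by 0.41) and 2 fell (Pip5k1a by 0.31 and Plcb1 by 0.36), and 13 did not pass. That is 23.5% of the list; in set 1, 2 rose and none fell, and in set 2 none rose and 2 fell. Plcb1 missed the threshold without set 1 control replicate 2 (-0.30, limma adjusted p = 0.088). Of the 9 tested genes for incretin receptors and cAMP signalling, which raise TRPM activity in β cells, 2 fell, the receptors Gipr by 0.68 and Glp1r by 0.63, with limma adjusted p = 0.008 and 0.016. That is 22.2% of the list. By limma none of the 9 was called in set 1 or in set 2 alone, where 3 and 2 had an unadjusted p under 0.05, and without set 2 Cop1 deletion replicates 2 and 3 Glp1r was -0.41 (limma adjusted p = 0.016).

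Of 8 tested genes for making or breaking down ADP-ribose, the ligand of Trpm2, Nudt9 rose by 0.18 and Adprhl2 fell by 0.19 over both sets, or 25% of the list. Without set 2 Cop1 deletion replicates 2 and 3 Nudt9 was 0.12 (limma adjusted p = 0.14). Of 7 tested genes whose products bind or act beside Trpm4, 2 rose, among them the sulfonylurea receptor Abcc8 by 0.24, and 1 fell, the KATP channel subunit Kcnj11 by 0.19. Kcnj11 missed the threshold without set 1 control replicate 2 (limma adjusted p = 0.096) and without set 2 Cop1 deletion replicates 2 and 3 (0.13). Of 11 tested magnesium transport genes, the substrate class of Trpm7, Nipa2 fell by 0.45 and Slc41a3 by 0.41, or 18.2% of the list. In set 1, 1 fell and none rose, and in set 2, 1 rose and none fell. Slc41a3 missed the threshold without set 1 control replicate 2 (limma adjusted p = 0.1) and without set 2 Cop1 deletion replicates 2 and 3 (0.088); leaving out that pair, Magt1 passed, at 0.19 (limma adjusted p = 0.0076). Of 17 tested zinc transport genes, Slc39a11 rose by 0.81 and Slc39a6 by 0.35, and Slc30a8, the granule zinc transporter of β cells, fell by 1.10 over both sets (limma adjusted p = 0.00017). That is 17.6% of the list. In set 2 alone Slc30a8 was -1.05 and called, but -0.75 without Cop1 deletion replicates 2 and 3 (limma adjusted p = 0.082), and Slc39a6 over both sets missed the threshold without set 1 control replicate 2 (limma adjusted p = 0.052). Of the 7 other TRP genes that passed the filter, of 23 listed, limma called none over both sets, and none had an unadjusted p under 0.05; the 2 of highest mean level were Trpc1, at 0.09 ± 0.14 (limma adjusted p = 0.68), and Mcoln1, at 0.08 ± 0.05 (limma adjusted p = 0.33). Without set 2 Cop1 deletion replicates 2 and 3, 3 of the 7 passed and were higher: Trpc1 at 0.30, Trpc4 at 0.38 and Pkd2 at 0.28 (limma adjusted p = 0.0077, 0.034 and 0.00053). That fit called 21.2% of all genes tested.

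The genes next to Trpm5 on chromosome 7 did not all follow it. Trpm5 lies between Tssc4 and Kcnq1 and overlaps no annotated gene on GRCm38.p6. Of 9 tested genes in the neighbourhood, 3 rose over both sets, Slc22a18 by 0.83, Cd81 by 0.64 and Cdkn1c by 0.26, and 1 fell, Tssc4 by 0.32 (limma adjusted p = 0.00068). Their median was 0.07, against -0.02 over all genes tested, and 44.4% of them were called, against 20.1% of all genes. In set 2, 4 rose and 2 fell of the 9, with 18.8% of all genes tested called. Without Cop1 deletion replicates 2 and 3, 1 rose and 1 fell, in a fit that called 11.1% of all genes tested. Cdkn1c over both sets missed the threshold without that pair (0.22, limma adjusted p = 0.079).

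Of 9 β-cell markers, 5 fell and 1 rose with Cop1 deletion over both sets, which is 66.7% of the list against 20.1% of all genes tested, and their median was -0.69. On the log2 scale, Mafa (limma adjusted p = 9.5e-08) and Nkx6-1 (by 0.69), transcription factors of β cells, fell. So did the glucose transporter Slc2a2 by 2.68, G6pc2, a glucose-6-phosphatase subunit, by 1.05, and the insulin gene Ins1 by 0.74. Iapp, which encodes islet amyloid polypeptide, rose by 0.36 (limma adjusted p = 0.025, and 0.055 without set 1 control replicate 2). Slc2a2 averaged 58.9 ± 12 RPKM in set 1 Cop1 deletion against 236 ± 42 RPKM in controls (SD, n = 3 each), and 5.58 ± 1.5 against 64.0 ± 22 RPKM in set 2 (SD, n = 4 each).

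With added Etv1/4/5 deletion, 4 of the 9 rose against Cop1 deletion (6.34% of all genes were called), Slc2a2 by 1.58, G6pc2 by 1.24, Mafa by 1.23 and Ins1 by 0.90. In set 2 the comparison of Cop1 Etv4/5 deletion with Cop1 deletion, with 1.73% of all genes called, had 2 of the 9 higher, Mafa at 36.5 ± 14 against 11.5 ± 4.1 RPKM (SD, n = 4 each) and Slc2a2 by 1.13 on the log2 scale. Without Cop1 deletion replicates 2 and 3 their log2 fold changes were 1.41 and 0.92 and missed the threshold (limma adjusted p = 0.099 and 0.2), in a fit that called 0.307% of all genes. Cop1 Etv4/5 deletion against control had 2 higher, Iapp by 0.60 and Ucn3 by 0.87, and 2 lower, Slc2a2 by 2.23 and Mafa by 2.05, with 8.74% of all genes called. The summed level of the 9 was 265545 to 298789 RPKM in the libraries labelled Cop1 Etv1/4/5 deletion, 217193 to 238095 RPKM in Cop1 deletion and 264152 to 298815 RPKM in controls of set 1. In set 2 the sums overlapped. They were 212965 to 238673 RPKM in Cop1 Etv4/5 deletion, 165802 to 243640 RPKM in Cop1 deletion and 167428 to 232560 RPKM in controls. Ins2, Iapp and Ins1, at means of 162680, 38962 and 32292 RPKM over all libraries, make up nearly all of these sums. The next highest, G6pc2, averaged 806 RPKM, so the sums say little about the other markers. With Cop1 deletion in set 2 alone, 5 of the 9 fell and 1 rose, with 18.8% of all genes tested called. Without Cop1 deletion replicates 2 and 3, 4 fell and 1 rose, in a fit that called 11.1%. The part of β-cell markers in the Trpm5 result was not tested.

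Other cell types were read in the same way, and their part in the results was not tested. Of 4 tested markers of tuft cells, which also express Trpm5, 1 fell over both sets, Avil by 0.59, and none rose. That is 25% of the list, and the median of the 4 was 0.14. Without set 2 Cop1 deletion replicates 2 and 3, 1 rose and 1 fell, with a median of -0.07. That fit called 21.2% of all genes tested. The defining tuft gene Pou2f3 had at most 0.0548 RPKM in any library. Gfi1b and Il25 were at 0 in 15 and 17 of the 22 libraries. The sum of the 12 tuft markers was 9.23 to 13.5 RPKM in Cop1 deletion against 8.92 to 10.8 RPKM in controls of set 1, and 10.7 to 16.0 against 13.1 to 16.5 RPKM in set 2. Of 8 markers of other endocrine cells, Pyy rose by 1.06 and Ppy by 1.33, and Sst fell by 0.84. Duct markers differed between the sets, with a sum of 241 to 300 RPKM in Cop1 deletion against 155 to 197 RPKM in controls of set 1, and 2520 to 4055 against 1065 to 1546 RPKM in set 2; of 6 tested, Krt7 rose by 0.80 and Spp1 by 1.69. By limma, none of 7 acinar, 10 leukocyte or 10 vascular and stromal markers was called over both sets (0, 3 and 0 had an unadjusted p under 0.05), but acinar sums ranged widely, from 3629 to 20762 RPKM in set 2 Cop1 deletion and 709 to 10606 RPKM in set 2 controls. In set 2 the leukocyte sum was 72.9 to 176 RPKM in Cop1 deletion and 58.7 to 93.0 RPKM in controls, and C1qb rose by 0.87 and Aif1 by 0.71; without Cop1 deletion replicates 2 and 3 they were 0.26 and 0.30 and not called (limma adjusted p = 0.53 and 0.51). Of 5 tested markers of Schwann cells and neurons, Tubb3 fell by 0.91. In set 2 alone, 1 of the 5 rose and 1 fell. Without set 2 Cop1 deletion replicates 2 and 3, 2 fell and none rose over both sets, with 21.2% of all genes called. The same counts were found in set 2 without that pair, with 11.1% called.

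The same lists were read for added Etv deletion. For Cop1 Etv4/5 deletion against Cop1 deletion in set 2, where Trpm4 was called, the median over 7 acinar markers was -2.02 on the log2 scale, and all 7 had an unadjusted p under 0.05; 1 was called by limma, Ptf1a, which was lower by 1.44 on the log2 scale (limma adjusted p = 0.038). Acinar sums were 918 to 3759 RPKM in Cop1 Etv4/5 deletion and 3629 to 20762 RPKM in Cop1 deletion. Duct markers had a median of -0.96 and leukocyte markers of -0.61, with none called by limma and 4 of 6 and 5 of 10 at an unadjusted p under 0.05. Duct sums were 957 to 2572 RPKM in Cop1 Etv4/5 deletion against 2520 to 4055 RPKM in Cop1 deletion, and leukocyte sums 63.0 to 67.4 against 72.9 to 176 RPKM. Without Cop1 deletion replicates 2 and 3 these medians were -1.47, -0.67 and -0.03 for acinar, duct and leukocyte markers, that of the vascular and stromal markers was 1.05, against 0.33 with all libraries, and none of these markers was called by limma (2 of 7, 3 of 6, 0 of 10 and 9 of 10 had an unadjusted p under 0.05). In set 1, Spp1 was the only acinar, duct, leukocyte, vascular or stromal marker called in the libraries labelled Cop1 Etv1/4/5 deletion against Cop1 deletion. It was lower by 2.08 on the log2 scale (limma adjusted p = 0.014). Of 8 markers of other endocrine cells, 1 was called there, higher, in a comparison with 6.34% of all genes called. No tested tuft, Schwann cell or neuron marker was. In the set 2 comparison no marker of other endocrine cells, tuft cells, Schwann cells or neurons was called. The part of these cells in the Trpm values was not tested.

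The genes whose level across the libraries was most like that of each member were found by Pearson's r of log2(RPKM + 0.5), with each set's mean subtracted, over 22 libraries and 13266 genes. The libraries share depth, genotype and cell mix, so r is given as a description. For Trpm5 the highest were Maob (r = 0.95), which encodes monoamine oxidase B, Grk5 (0.94), a receptor kinase, T2 (0.94) and Agpat3 (0.94), an acyltransferase of lipid synthesis. The lowest were 1810006J02Rik (r = -0.92), Lrrk1 (-0.91), Dusp6 (-0.91), a phosphatase of ERK, and Ppp1r3b (-0.91). Maob averaged 73.0 ± 6.21 RPKM in the set 1 libraries labelled Cop1 Etv1/4/5 deletion, 45.5 ± 6.32 RPKM in Cop1 deletion and 94.0 ± 14.3 RPKM in controls (SD, n = 4, 3 and 3). Dusp6 ran the other way, at 15.4 ± 1.6, 27.6 ± 4.02 and 10.9 ± 3.72 RPKM in those groups.

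**Figure D4:**
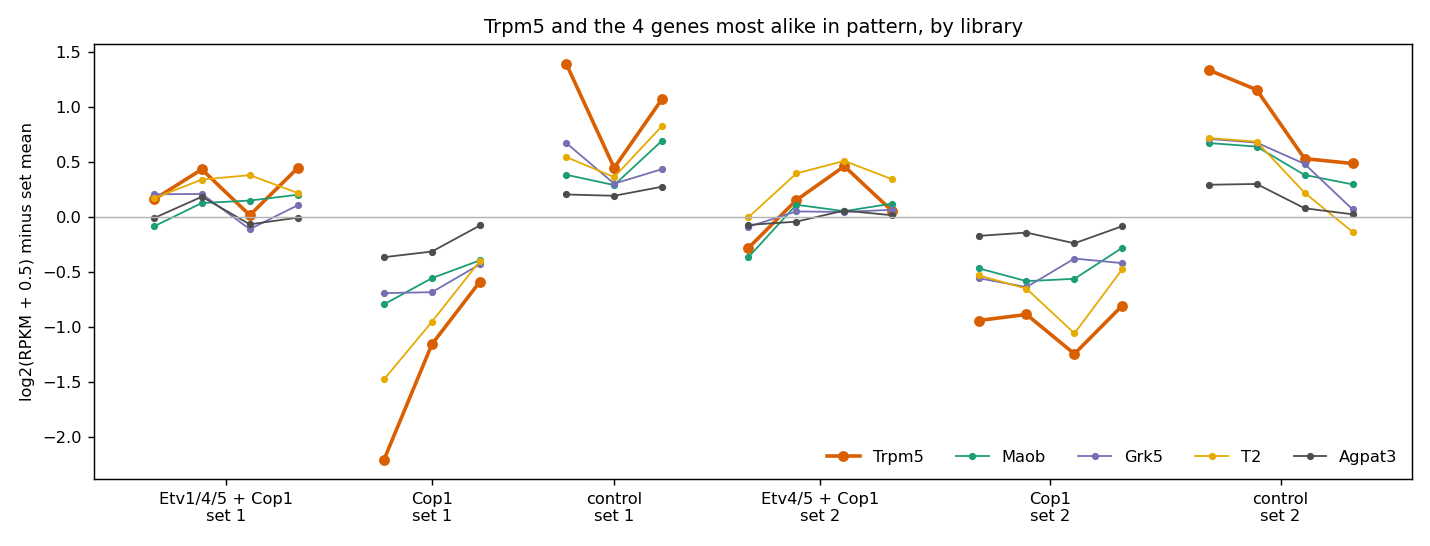
Level of Trpm5 and the 4 genes most alike in pattern (Maob, Grk5, T2, Agpat3), as log2(RPKM + 0.5) minus the mean of the set, by library; lines join libraries of a group and carry no order. All 5 genes have their lowest group mean in Cop1 deletion in both sets, and Trpm5 has the widest swing, reaching -2.21 in set 1 Cop1 deletion replicate 2.

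The other members had different partners. For Trpm4 the highest was Prkag1 (r = 0.95), a subunit of AMP-activated kinase, followed by Ctsl, Bcl2l1 and Tspan17. For Trpm3 it was Kif16b (r = 0.95), a kinesin, followed by Zbtb18, Zyg11b and Ccser1. For Trpm2 it was Tnfrsf21 (r = 0.78), a death receptor, followed by Rnf128, Tmem127 and Lamp2. For Trpm7 it was Mysm1 (r = 0.97), followed by Son, Zfp26 and Npat, but without set 2 Cop1 deletion replicate 2 these values were 0.84, 0.80, 0.83 and 0.75. The correlation of Trpm3 with Trpm7 was 0.52 over all libraries and -0.14 without that library, and that of Trpm4 with Trpm5 was -0.59 in both. Over all libraries the strongest between members was that of Trpm3 with Trpm4, at -0.77, and -0.64 without that library. Trpm4 with Trpm7 had -0.68, and -0.41 without it.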

How the data were processed

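RNA sequencing values are RPKM per gene, as deposited by the authors in a single table, with 28059 genes by NCBI Gene number. Per the submitters' processing notes, reads were placed on mm9. For the aligner, the counter and the gene models, versions were not given in the sources used here. Per the labels' protocols, islets were cultured and picked by hand. Of 24 columns, 22 matched 1 sample title and 2 could not be placed and were not used. Symbols came from GRCm38.p6 tables and matched 24998 genes.

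Values were taken as log2(RPKM + 0.5), and the 14342 genes that reached 1 RPKM in 4 or more libraries were fitted with limma 3.58.1 (trend and robust; R 4.3.3, with the data.table package, version 1.17.8), with 6 group means and 9 contrasts. P-values are two-sided and Benjamini-Hochberg adjusted over these genes, and 0.05 is the threshold. All 5 members passed the filter, so no separate test was needed below it. A fold change is on the log2(value + 0.5) scale and understates changes of low genes. The method was tested on simulated data. Depth is known only as relative depth, so no counting interval is given.

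The members and lists were chosen with earlier results of these data known. The 5 members, the targeted genes and Esr1 are named. A list contributes at most 4 called genes per comparison, those of smallest adjusted p, or 2 of highest mean RPKM where none is called. A called gene of these lists is not reported here. Also named are the 4 genes most alike in pattern to each member, and for Trpm5 the 4 least alike. Alternatives were other pseudocounts, filters, scalings, fits and library sets, and leaving out each of the 22 libraries. Leaving out set 2 Cop1 deletion replicates 2 and 3 together, the correlations without replicate 2, and the lists without those libraries or without set 1 control replicate 2, were chosen after seeing the data.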

Additional observations from a re-analysis of the deposited data

Results flagged for a closer look

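For Trpm7, the 4.18 RPKM of set 2 Cop1 deletion replicate 2 was far below the other 3 libraries of its group, by Dixon's test at the 95% level. The test was run on 20 groups of a member's values and marked 1, and chance marks about 1 in 20.

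For Trpm4, the Cop1 deletion effect differed between the sets, being smaller in set 1 (difference -0.45 on the log2 scale, limma adjusted p = 0.028). This call was lost in 3 of 9 other settings, where the difference ranged from -0.50 to -0.27 over all 9. It was also lost in 6 of the 22 fits that left out 1 library.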

How the results depend on the processing

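The fall of Trpm5 with Cop1 deletion kept its direction and its call over both sets and in each set under all alternatives run, with a log2 fold change of -2.25 to -1.90 over both sets, and -2.25 to -1.84 leaving out 1 library. The rise of Trpm5 with added Etv1/4/5 deletion and the rise of Trpm4 in set 2 kept theirs too. No paired analysis was possible because the labels carry no replicate numbers; the numbers used here follow accession order.

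Other counts of Trpm genes called moved, and the cause was not tested. For Cop1 Etv4/5 deletion against Cop1 deletion in set 2, the 1 call was 0 with no filter, equal total RPKM, median ratio scaling, each set fitted alone, set 2 without libraries with Y-linked transcripts or without Cop1 deletion replicates 2 and 3, and 3 with library weights. For Cop1 Etv4/5 deletion against control the 1 call was 0 with median ratio scaling, each set fitted alone or set 2 without libraries with Y-linked transcripts, 4 with library weights and 2 without Cop1 deletion replicates 2 and 3. For the difference of the Cop1 effect between sets the 1 call was 0 with equal total RPKM, without libraries with Y-linked transcripts or without those replicates, and 2 with library weights. Leaving out 1 library gave 0 to 2 calls in each of these 3. Library weights gave 4 for Cop1 deletion over both sets, 1 for Cop1 Etv1/4/5 deletion against control and 1 for the difference of the Etv effect, while calling 6259 genes over both sets, against 2877. Over all alternatives the genes called numbered 2274 to 6259 there, 719 to 5429 in set 1 (1195 as reported), 1329 to 5035 in set 2 (2702), 543 to 3712 for added Etv1/4/5 deletion (909) and 0 to 3217 for added Etv4/5 deletion (248). Each set fitted alone gives no value for comparisons over both sets.

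Direction turned for uncalled values near 0. With a pseudocount of 1, Trpm7 was -6.78e-05 for Cop1 Etv1/4/5 deletion against control. With equal total RPKM, which moved the median of all genes by 0.12 in set 1 for Cop1 deletion and by -0.13 for added Etv1/4/5 deletion, Trpm7 was 0.068 for Cop1 deletion, -0.078 for added Etv1/4/5 deletion and -0.011 for Cop1 Etv1/4/5 deletion against control, and added Etv1/4/5 deletion gave -0.080 for Trpm3 and -0.10 for Trpm4. It also moved the split of all genes called, higher and lower, to 1121 and 256 against 580 and 615 for Cop1 deletion in set 1, to 840 and 1636 against 1303 and 1399 in set 2, to 1490 and 839 against 1372 and 1505 over both sets, to 238 and 1390 against 523 and 386 for added Etv1/4/5 deletion, and to 429 and 776 against 715 and 538 for Cop1 Etv4/5 deletion against control. With library weights, added Etv1/4/5 deletion gave 0.063 for Trpm2 and -0.023 for Trpm4, and Trpm7 was 0.024 for Cop1 Etv4/5 deletion against control; without libraries with Y-linked transcripts this last was 0.0014. Leaving out 1 library gave, for Cop1 deletion in set 1, -0.17 to 0.18 for Trpm2 and -0.11 to 0.029 for Trpm7; for added Etv1/4/5 deletion, -0.14 to 0.19 for Trpm2 and -0.0057 to 0.073 for Trpm4; for Cop1 Etv1/4/5 deletion against control, -0.082 to 0.17 for Trpm2 and -0.053 to 0.088 for Trpm7; for Cop1 Etv4/5 deletion against control, -0.088 to 0.029 for Trpm7; and for differences between sets, -0.80 to 0.0038 for Trpm5 (Cop1) and -0.26 to 0.078 for Trpm2 (Etv).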
